A study of Mus musculus with 6 samples.

Results

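Fatty acid binding proteins are small cytosolic proteins that fold into a barrel around a long-chain fatty acid or related lipid and carry it between membranes, enzymes, lipid droplets and the nucleus, where some of them hand ligands to the nuclear receptors of the PPAR family. Each member is named for the tissue where it is abundant. Fabp3 is the heart and muscle form, Fabp4 the form of adipocytes, macrophages and capillary endothelium, Fabp5 the epidermal form, which many other cells also make, and Fabp7 the brain form, a marker of radial glia and of the glial cells of peripheral nerves. The 4 genes Fabp3, Fabp4, Fabp5 and Fabp7 were followed here among 22180 genes measured in cultured lacrimal gland cells. Each gene was taken from the probe sets annotated with its symbol alone, and, where there were several, the one chosen by its mean signal over the 6 arrays (the highest) stood for the gene. The 4 genes were chosen with earlier results of these arrays known, among them the difference of Fabp7, so the values of Fabp7 are a description and its p-values are no independent support.

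The arrays (Affymetrix Mouse Gene ST) measured total RNA of myoepithelial cells, the contractile basal cells around the secretory units of the exorbital lacrimal gland. In one group 3 arrays held cells of female TSP1 null mice, which lack thrombospondin-1 and serve in the series as a model of dry eye disease. In the other group 3 arrays held cells of female wild-type C57BL/6J mice. Neither the age of the mice nor the genetic background of the null strain is stated in the labels. All cells were grown without treatment, in medium with serum, for about 2 to 3 weeks. The arrays of a group are labelled as biological replicates, with no statement that each came from its own animals or culture, and p-values therefore cover the array-to-array spread, which may be technical.

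Array medians ran from 5.25 to 5.32 on the log2 scale and correlations between arrays from 0.978 to 0.988. The probe set of the disrupted gene, Thbs1, read 12.92 ± 0.17 on the null and 13.60 ± 0.13 on the wild-type arrays (SD, n = 3), and the labels do not say where its probes lie relative to the disruption. The labelled cell type was checked against its markers. Acta2, the smooth muscle actin of myoepithelial cells, read between 13.85 and 14.01 on all 6 arrays. The basal keratin Krt14 read 5.78 to 6.35 on the null and 4.93 to 5.52 on the wild-type arrays, where the median of all gene means was 5.92. Of the contractile markers 10 of 11 had means above that median, and of the basal and squamous markers 3 of 13. All 20 macrophage markers and 11 of 13 fibroblast markers had means above that median, so genes that mark other cells were also bright. In such bulk RNA, fewer cells of a type and less RNA per cell cannot be told apart. Macrophage markers differed most between arrays, with mean levels of 9.27, 10.09 and 7.57 on the null arrays and 9.88, 10.60 and 10.76 on the wild-type arrays. Glycolysis and hypoxia genes had mean levels of 10.41, 9.69 and 10.37 on the null and 9.34, 9.26 and 9.27 on the wild-type arrays.

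The comparison asks how the carriers differ between cells of the dry eye model and of healthy mice. Fabp7 had the widest gap, with a null mean 2.65-fold below the wild-type mean, but 1 wild-type array read as low as the null arrays. Fabp4 was also lower on average in the null cells, and its arrays overlapped. Fabp5 was 1.08-fold lower and Fabp3 1.21-fold higher, both within or close to the spread between arrays. With limma, whose moderated test was run over all genes as TSP1 null minus wild type, 0 of the 4 genes passed an adjusted p of 0.05. The same was true of all 22180 genes (0%). At an unadjusted p under 0.05 there were again 0 of 4, against 10.6% of all genes (2341), of which 6.28% were higher and 4.27% lower in the null cells. Of the settings that kept all 6 arrays, only a replicate block (unadjusted limma p 0.0414, adjusted p = 0.482) and array weights brought Fabp7 under that level. With array weights the difference was -1.84 (unadjusted limma p 0.00524, adjusted p = 0.175). In those fits 2215 and 3209 of all genes came under it, and the labels do not say that the replicate numbers pair the arrays. The unadjusted p of Fabp7 was 0.172 with the ordinary linear model and 0.337 by limma with the macrophage marker mean as a covariate. The groups overlapped for all 4, and for 15.8% of all genes every null array lay on the same side of every wild-type array. With only 4 genes, counts of 0 do not set them apart from these shares.

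**Figure D1:**
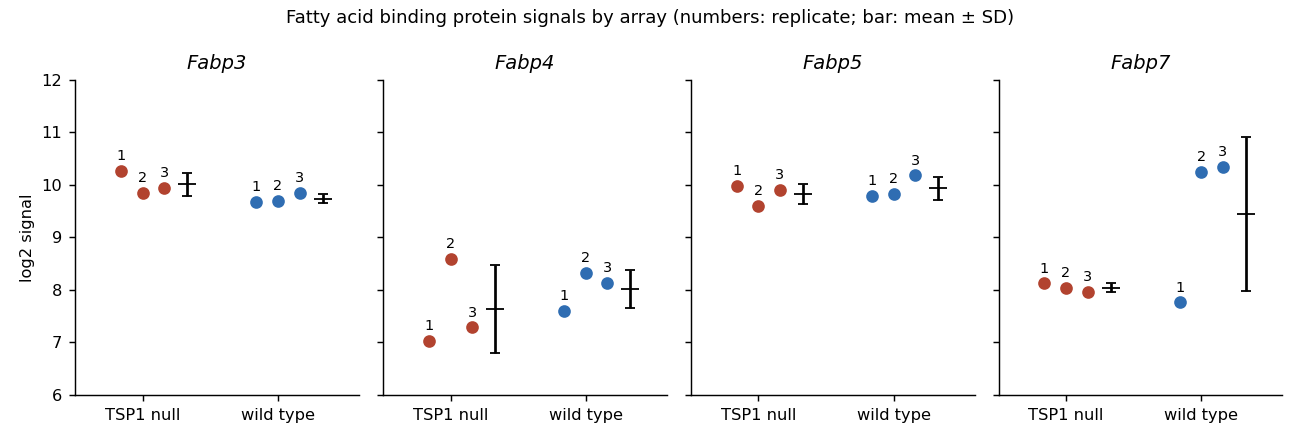
Log2 signal (vertical axis) of Fabp3, Fabp4, Fabp5 and Fabp7 on the 3 TSP1 null arrays (red) and the 3 wild-type arrays (blue). Numbers give the replicate and the black bar the mean and SD of each group. The wild-type arrays of Fabp7 fall at 7.76 on the one hand and at 10.25 and 10.34 on the other, with the null arrays between 7.96 and 8.12.

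For 2 of the 4 genes a sequence upstream of the start was matched in the RefSeq promoter table, Fabp7 and Fabp3; Fabp4 and Fabp5 were not matched. The 250 bases before each start are shown because the nuclear receptors, the hypoxia factors and the Notch pathway are each known to act on some genes of this family. Capitals mark 6-base matches to AGGTCA, the half-site of PPAR and related receptors, and to TGGGAA, the core bound by the Notch effector RBPJ, each searched on both strands. The hypoxia response core ACGTG was searched in the same way. The Fabp7 sequence lies at chr10:57784673-57784922 and the Fabp3 sequence at chr4:130308488-130308737, both on the plus strand of GRCm38.p6 and written 5′ to 3′.
Fabp7: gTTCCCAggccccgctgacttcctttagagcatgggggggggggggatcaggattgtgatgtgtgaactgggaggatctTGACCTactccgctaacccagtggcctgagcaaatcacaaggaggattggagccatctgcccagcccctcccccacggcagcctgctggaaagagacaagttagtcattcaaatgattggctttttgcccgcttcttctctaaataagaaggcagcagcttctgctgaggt
Fabp3: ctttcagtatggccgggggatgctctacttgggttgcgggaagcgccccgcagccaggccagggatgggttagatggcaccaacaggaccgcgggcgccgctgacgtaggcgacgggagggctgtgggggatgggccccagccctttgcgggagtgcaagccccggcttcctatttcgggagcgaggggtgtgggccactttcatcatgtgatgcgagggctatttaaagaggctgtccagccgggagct

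Both matches in Fabp7 were to the reverse strand, TTCCCA from 249 and TGACCT from 171 bases before the start, and they do not overlap each other. Among 32851 windows of the same length in the table, 21.6% held TGGGAA or its reverse, 14.0% held AGGTCA or its reverse, and 16.6% held the hypoxia core. The Fabp3 window held none of the 3 motifs, which says only that these letters are not in this window. GC content was 54.8% for Fabp7 and 64.8% for Fabp3. These matches are a description of the letters, and no binding was measured.

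Fabp7, which binds omega-3 fatty acids such as docosahexaenoic acid, had log2 signals of 8.12, 8.04 and 7.96 on the null arrays and 7.76, 10.25 and 10.34 on the wild-type arrays. The null arrays lay close together, and the wild-type arrays split, the first of them 0.20 below the lowest null array and the second 2.13 above the highest. Within the wild-type group the second array exceeded the first by 2.49, or 5.61-fold. The wild-type SD of 1.46 was exceeded by 0.180% of all genes, and the null SD of 0.08 by 79.9%. So the gene was among the most variable of all in the wild-type cells and steady in the null cells.

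The group means of Fabp7 were 8.04 ± 0.08 in null and 9.45 ± 1.46 in wild-type cells (SD, n = 3), a difference of -1.41 (SE 0.62, 95% interval -2.85 to 0.04). Its limma adjusted p was 0.481. Only 0.550% of all genes had a difference at least as large in size. The call turned on the first wild-type array, since without it the difference was -2.25 (SE 0.12) with a limma adjusted p of 0.00687, the smallest p of all genes and the 1 call over all genes in that fit. With the second wild-type array left out the difference was -1.01, with the third left out -0.96, and neither was called. Without any one of the null arrays it stayed between -1.45 and -1.37, also uncalled.

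The macrophage level was lowest of the wild-type group on the first array too (9.88 against 10.60 and 10.76), and the null array with the highest macrophage level (10.09, the second) had Fabp7 at 8.04. With the macrophage marker mean as a covariate the Fabp7 difference was -0.83 (SE 0.81, adjusted p = 0.892 by limma), and the part of macrophages in it was not tested further. That mean itself differed between the groups (9.0 in null and 10.4 in wild-type cells), so this fit cannot part it from genotype. Markers of the glia that make Fabp7 in nerve had 6 of 16 members above the median of all gene means. Their mean level was 5.50 to 5.61 on the null arrays and 5.48 to 5.53 on the wild-type arrays, with 1 of 16 at an unadjusted p under 0.05 (10.6% of all genes were). Sox10, the transcription factor that defines these cells, read 5.40, 5.60 and 5.02 on the null and 5.40, 5.56 and 5.61 on the wild-type arrays, below the median of all gene means. Single members, named after their values were seen, varied more within the wild-type group. Nes, an intermediate filament of progenitors, read 5.56, 7.22 and 6.89 there and Slc1a3, a glutamate transporter, 8.26, 4.60 and 5.85. Nes was thus lowest and Slc1a3 highest on the first wild-type array, where Fabp7 was lowest, and what part glia have in the Fabp7 signal was not tested.

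Fabp4, which exchanges fatty acids with hormone-sensitive lipase and feeds PPAR gamma, read 7.03, 8.59 and 7.28 on the null arrays and 7.61, 8.32 and 8.12 on the wild-type arrays. The second null array was the highest of all 6 and the first and the third were the lowest, so the null group spanned the wild-type group. The means were 7.63 ± 0.83 and 8.02 ± 0.37 (SD, n = 3), and the difference was -0.38 (SE 0.39, 95% interval -1.29 to 0.53), with a limma adjusted p of 0.784. Only 1.04% of genes had a larger null SD. Without the second null array the difference was -0.86 (SE 0.23, unadjusted limma p 0.00736, adjusted p = 0.217), and without the first null array it was -0.08. With the second null and first wild-type arrays both left out, an alternative chosen with the data already seen, the difference was -1.06 (limma adjusted p = 0.0362).

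The second null array also had the highest adipocyte marker mean, 5.49, where the other 5 arrays lay between 4.88 and 5.10. These markers were mostly dim, with 1 of 11 above the median of all gene means. Adipoq, the hormone that defines adipocytes, read 5.76 there and 3.96 to 4.69 elsewhere, and Plin1, the coat of adipocyte lipid droplets, 6.11 against 5.06 to 5.59. Car3, a carbonic anhydrase of fat and muscle, read 7.44 there and 4.44 to 5.80 elsewhere, while Pck1 (5.50) and Slc7a10 (5.38) of the same list were at their lowest on that array. Plin1, Car3, Pck1 and Slc7a10 were named after their values were seen. Macrophage markers were highest of the null group on the same array (10.09), and with their mean as a covariate the Fabp4 difference turned to 0.27 (SE 0.42, adjusted p = 0.939 by limma). As for Fabp7, the covariate differed between the groups, so this fit cannot part it from genotype. Endothelial markers, the remaining cell type known for Fabp4, had 2 of 14 above that median. Their mean levels were 5.01 to 5.23 on the null and 5.09 to 5.46 on the wild-type arrays. Of them Emcn, a sialomucin of capillaries, had the largest difference, -1.28 (SE 0.88), and read 3.70, 7.76 and 6.15 on the wild-type arrays, and Cdh5, the endothelial cadherin, differed by -0.65 (SE 0.42) and was likewise lowest of the wild-type arrays on the first, at 5.18 (both named after their values were seen). Of 14 such markers 0 were higher and 2 lower at an unadjusted p under 0.05 (6.28% and 4.27% of all genes), Kdr, a receptor for VEGF, at -0.55 (SE 0.18) and Pecam1 at -0.38 (SE 0.15). Kdr, Pecam1, Vwf, Plvap, Flt1 and Cldn5 were also lowest of the wild-type arrays on the first. Tek, Erg, Robo4 and Esam of the same list were highest of the wild-type arrays there. Tek read 7.74, 5.73 and 6.14 on the wild-type arrays and differed by 0.43 (SE 0.47). What part these cell types have in the Fabp4 signal was not tested.

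Fabp5, which can deliver retinoic acid and fatty acids to PPAR delta, read 9.97, 9.60 and 9.90 on the null arrays and 9.79, 9.83 and 10.18 on the wild-type arrays. The highest value was the third wild-type array and the lowest the second null array, and on the other 4 arrays the null values lay above the wild-type values. The difference was -0.11 (SE 0.15, 95% interval -0.47 to 0.25, adjusted p = 0.857 by limma), so changes beyond these bounds were not detected with 3 arrays a group. It turned to 0.0038 without the second null and to 0.017 without the third wild-type array, and carried no settled direction. Of the 4 probe sets for Fabp5, the one used averaged 9.88 over the arrays, just above the next at 9.81, and the remaining pair averaged 8.60 and 6.45. Their differences were -0.11, -0.14, -0.10 and 0.17 in that order, with the groups overlapping on each. The reference gene table also lists a pseudogene of Fabp5, and the sources do not say how far its transcripts contribute to these probe sets.

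Fabp3, which supplies fatty acids to mitochondria in muscle, read 10.26, 9.84 and 9.94 on the null arrays and 9.68, 9.69 and 9.85 on the wild-type arrays. The first null array was the highest, and the groups touched only where the third wild-type array (9.846) lay just above the second null array (9.843). The means were 10.01 ± 0.22 and 9.74 ± 0.09 (SD, n = 3), a difference of 0.28 (SE 0.14, 95% interval -0.05 to 0.60), or 1.21-fold, with a limma adjusted p of 0.536. Without the first null array the difference was 0.15. The other probe set of Fabp3 was dim, with a mean of 4.84 against 9.88, and its group means of 4.84 and 4.84 did not separate. Striated muscle markers were mostly dim, with 5 of 15 above the median of all gene means. Their mean level was 5.50 in both groups, from 5.42 to 5.56 on the null and 5.37 to 5.60 on the wild-type arrays. Ckm, the muscle creatine kinase that defines the list, was at 5.55 in null and 5.45 in wild-type cells. What part muscle cells have in the Fabp3 signal was not tested.

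**Figure D2:**
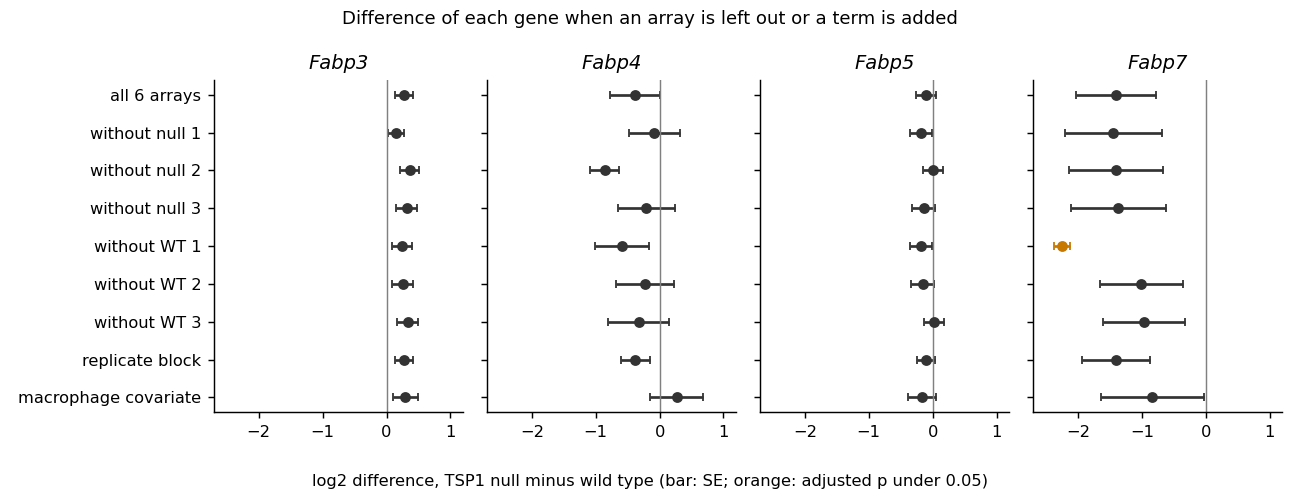
Log2 difference between TSP1 null and wild type (horizontal axis, bars are SE) for each gene with all 6 arrays, with each array left out, with the replicate number as a block and with the macrophage marker mean as a covariate. Orange marks an adjusted p under 0.05, reached once, by Fabp7 without the first wild-type array at -2.25; Fabp4 passes to the right of 0 with the macrophage covariate.

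Genes with the most similar pattern over the 6 arrays were taken from 1607 named genes at or above the median gene mean that spanned at least 1 log2 unit. They were selected for their Pearson correlation, which therefore has no test, and the arrays share one normalization. Fabp7 was most like Sirpb1a (r = 0.979), a signal regulatory protein of myeloid cells, Adgb (0.974), which encodes androglobin, Hey1 (0.962), a repressor induced by Notch, and S100a1 (0.960), a calcium binding protein. Hey1 read 6.38, 6.82 and 6.75 on the null arrays and 6.39, 7.75 and 7.81 on the wild-type arrays. Adgb read 5.29, 5.55 and 5.05 on the null arrays and 5.39, 7.64 and 7.21 on the wild-type arrays. All 4 genes were thus higher on the second and the third wild-type arrays than on the other 4 arrays, as Fabp7 was.

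Fabp4 was most like Epas1 (r = 0.966), the hypoxia factor HIF-2 alpha, Rassf3 (0.964), Vnn1 (0.952), a pantetheinase, and Nr1d1 (0.951), a repressor of the circadian clock. Epas1 read 7.21, 9.10 and 7.27 on the null and 7.69, 9.04 and 8.18 on the wild-type arrays, with its highest value on the second null array. Fabp5 was most like Mcm5 (0.993) and Mcm6 (0.951), subunits of the replicative helicase, H2ax (0.944), a histone that marks DNA breaks, and E2f7 (0.943), a cell cycle repressor. Mcm5 read 7.72, 7.10 and 7.55 on the null arrays and 7.42, 7.43 and 8.16 on the wild-type arrays. All 4 genes joined Fabp5 in being lowest on the second null and highest on the third wild-type array.

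Fabp3 was most like Hilpda (r = 0.977), which is induced in hypoxia and blocks lipolysis at lipid droplets, Mmp11 (0.963), a matrix protease, Trarg1 (0.958), which regulates trafficking of an insulin-dependent glucose transporter, and Col7a1 (0.955), the collagen of anchoring fibrils. Hilpda read 8.28, 7.53 and 7.84 on the null arrays and 7.33, 7.21 and 7.69 on the wild-type arrays, so its groups also overlapped. The 4 genes of this set were highest on the first null array. The sets named for the 4 carriers shared no gene.

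**Figure D3:**
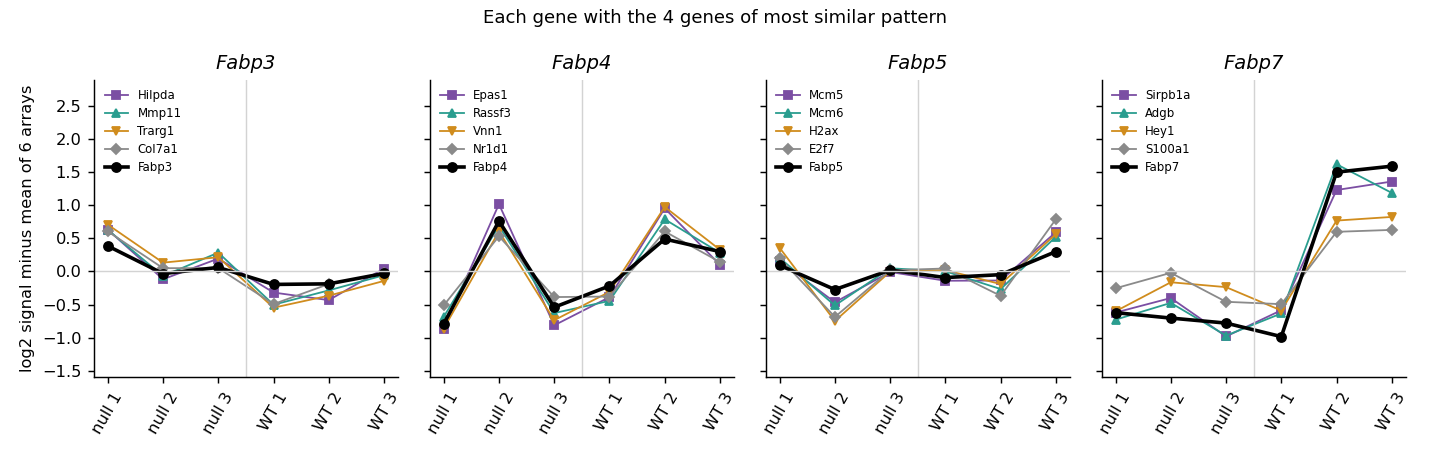
Log2 signal minus the mean over the 6 arrays (vertical axis) on each array (horizontal axis) for each carrier (black) and the 4 genes of most similar pattern (colours). Lines join points only to guide the eye. Fabp7 and its neighbours stand high on the second and the third wild-type arrays, and Fabp4 and its neighbours on the second null and second wild-type arrays.

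The remaining intracellular lipid binding proteins were dim. Of the 10 measured, only Crabp2, a retinoic acid carrier, lay above the median of all gene means. With limma 0 of 10 passed in either direction. At an unadjusted p under 0.05 there was 1 higher and 0 lower (6.28% and 4.27% of all genes), and the median difference was 0.08 against 0.02 over all genes. The 1 gene was Fabp1, the liver form, at 3.61 ± 0.18 against 3.22 ± 0.18 (SD, n = 3), a difference of 0.39 (SE 0.14) at a mean level below which only 8.42% of genes lay. Pmp2, the myelin form, differed by -0.28 (SE 0.13), Fabp6, the ileal bile acid carrier, by 0.19 (SE 0.14), and Crabp2 by 0.20 (SE 0.33), its value on the first null array (7.29) standing above the range of 6.00 to 6.41 on the others. The other 6, Fabp2, Fabp9, Fabp12, Crabp1, Rbp2 and Rbp7, had differences between -0.03 and 0.13. On mouse chromosome 3 the reference table orders Fabp5, Pmp2, Fabp9 and Fabp4 as consecutive protein-coding genes, with differences of -0.11, -0.28, 0.0026 and -0.38 in that order.

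Genes that take up and activate fatty acids showed no common direction. Of 16 measured (Acsl1 and Acsl3 had no probe set of their own), 0 passed with limma, 3 were higher and 2 lower at an unadjusted p under 0.05, and the median difference was 0.02. Over all genes 6.28% were higher and 4.27% lower at that level, shares that also stand beside the lists below. Vldlr, a receptor for triglyceride-rich lipoproteins, read 9.35, 8.87 and 9.59 on the null and 8.47, 8.27 and 8.43 on the wild-type arrays, a difference of 0.88 (SE 0.19, adjusted p = 0.285). The null arrays were all above the wild-type arrays, and the groups were apart in either direction for 15.8% of all genes. The transporter Slc27a3 differed by 0.56 (SE 0.17) and Slc27a4 by 0.55 (SE 0.17). Cd36, the scavenger receptor that imports fatty acids, was added after its values were seen, at 8.95, 9.57 and 7.34 on the null and 9.33, 10.01 and 10.51 on the wild-type arrays (difference -1.33, SE 0.55). Its lowest value was on the third null array, where the macrophage markers were lowest too (7.57).

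Of the list of lipid nuclear receptors and the factors that work with them, which holds the PPARs that receive ligands from these carriers, 0 of 16 passed with limma, with 3 higher and 0 lower at an unadjusted p under 0.05 and a median of 0.08. Rarb, a retinoic acid receptor, had a difference of 0.73 (SE 0.21), Cebpb, a factor of early adipogenesis, 0.41 (SE 0.13), and Nrip1, a corepressor of oxidative genes, 0.36 (SE 0.14). The PPAR genes, chosen after their values were seen, differed by 0.05 (Ppara, SE 0.10), 0.16 (Ppard, SE 0.15) and -0.29 (Pparg, SE 0.32). Pparg, the partner of Fabp4, read 8.30, 8.91 and 8.56 on the null arrays and 8.11, 9.17 and 9.36 on the wild-type arrays. As with Fabp7, the first wild-type array was the lowest of all 6 and the second and the third the highest.

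PPAR target and fatty acid oxidation genes had the largest median of the lipid lists, 0.23, with 9 of 12 measured members higher on average (55.1% of all genes were). With limma 0 of 12 passed, 3 were higher and 0 lower at an unadjusted p under 0.05. Angptl4, a secreted inhibitor of lipoprotein lipase that is induced by PPARs and by hypoxia, read 9.26, 8.64 and 9.50 on the null and 7.54, 7.53 and 7.47 on the wild-type arrays. Every null array was above every wild-type array (groups were apart in either direction for 15.8% of all genes), by a mean of 1.62 (SE 0.21, adjusted p = 0.161). Acadvl, the very long chain acyl-CoA dehydrogenase, had a difference of 0.42 (SE 0.13), and Cpt1a, which passes fatty acids into mitochondria, 0.47 (SE 0.19). Fabp4, itself a known PPAR target, had the lower mean in the null cells. Lipid droplet and lipolysis genes had a median of 0.09, with 0 of 19 passing, 2 higher and 1 lower at an unadjusted p under 0.05, among them Dgat2, a triglyceride synthase, at 0.65 (SE 0.15), Pnpla2, the first lipase of stored fat, at -0.59 (SE 0.18), and Fitm2, which aids droplet budding, at 0.35 (SE 0.13).

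Glycolysis and hypoxia genes were listed because Fabp3 and Fabp7 are known to be induced by hypoxia in some tumour cells. Of 14 measured, 0 passed with limma, but 11 were higher and 0 lower at an unadjusted p under 0.05, and the median was 0.80. Pfkl, a phosphofructokinase, differed by 1.42 (SE 0.20), Ero1a, an oxidase of the endoplasmic reticulum, by 0.87 (SE 0.16), and Egln3, an oxygen-sensing hydroxylase, by 2.28 (SE 0.44). The 2 highest Fabp3 values, 10.26 and 9.94, were on the first and the third null arrays, where this list was also highest (10.41 and 10.37). Fabp7 stayed between 7.96 and 8.12 on all null arrays. Whether the hypoxia genes bear on the carriers was not tested.

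**Figure D4:**
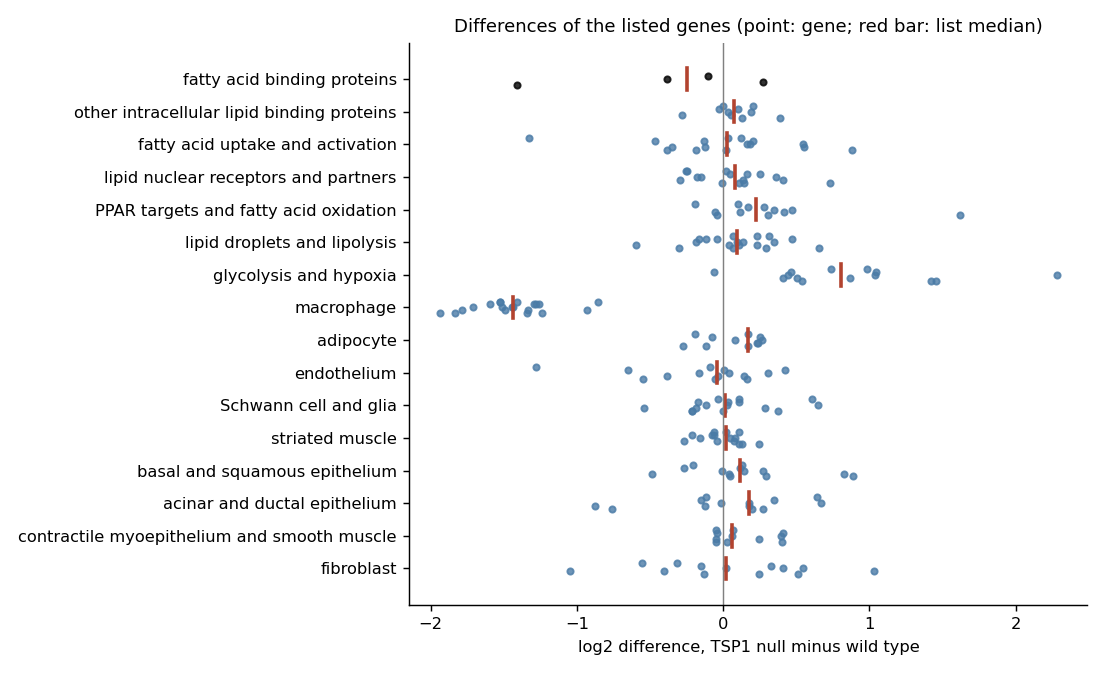
Log2 difference between TSP1 null and wild type (horizontal axis) of every measured gene of the carrier set, 6 pathway lists and 9 marker lists, with the list median as a red bar. The carriers run from -1.41 to 0.28, the glycolysis and hypoxia genes have a median of 0.80 and the macrophage markers one of -1.44.

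The marker lists of cell types show what the cultures held beside the carriers. At an unadjusted p under 0.05, 6.28% of all genes were higher and 4.27% lower. Macrophage markers had 0 of 20 past the limma threshold, 15 lower and 0 higher at an unadjusted p under 0.05, and a median of -1.44. Their examples were Ptprc, the common leukocyte antigen, at -1.84 (SE 0.64), Msr1, a scavenger receptor, at -1.78 (SE 0.63), and Cd68 at -1.59 (SE 0.57). On the third null array, the lowest for this list, Fabp4 read 7.28 and Fabp7 7.96. Basal and squamous epithelial markers, where Fabp5 is usually abundant, had 2 of 13 higher at an unadjusted p under 0.05, Krt14 at 0.89 (SE 0.20) and Krt17 at 0.82 (SE 0.23), and a mean level of 5.56 in null and 5.42 in wild-type cells. Of the adipocyte list 0 of 11 and of the striated muscle list 0 of 15 reached that level, as 10.6% of all genes did. In the adipocyte list Thrsp differed by -0.27 (SE 0.13) and Gpd1 by 0.24 (SE 0.14), and in the muscle list Mylpf by 0.25 (SE 0.12) and Mb by -0.27 (SE 0.14).

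In the glial list Cnp differed by 0.37 (SE 0.14) and L1cam by -0.54 (SE 0.27). The contractile list had 0 of 11 at an unadjusted p under 0.05, with Lmod1 at 0.40 (SE 0.20), Smtn at 0.25 (SE 0.15) and Acta2 at -0.05 (SE 0.10). The fibroblast list had 4 of 13 higher, led by Col1a2 at 0.51 (SE 0.11) and Col3a1 at 1.03 (SE 0.27), with Col1a1 at 0.54 (SE 0.15). Its mean level was highest on the first wild-type array (11.01, against 10.03 to 10.79 on the other 5), the array on which Fabp7 was low. Lum (9.76), Dpt (9.94), Dcn (13.20), Pdgfra (12.11), Fap (6.20), Pi16 (6.39) and Postn (13.28) were there at their highest of all 6 arrays. Col1a2 (12.53) and Pdgfrb (11.13) were at their lowest, and Col1a1, Col3a1, Thy1 and Mfap5 at neither. What part fibroblasts have in the Fabp7 signal was not tested. Acinar and ductal markers had 1 higher and 2 lower of 13, Dcpp3 at -0.76 (SE 0.13) and Dcpp1 at -0.88 (SE 0.23) among them, with the water channel Aqp5 at -0.02 (SE 0.14).

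**Figure D5:**
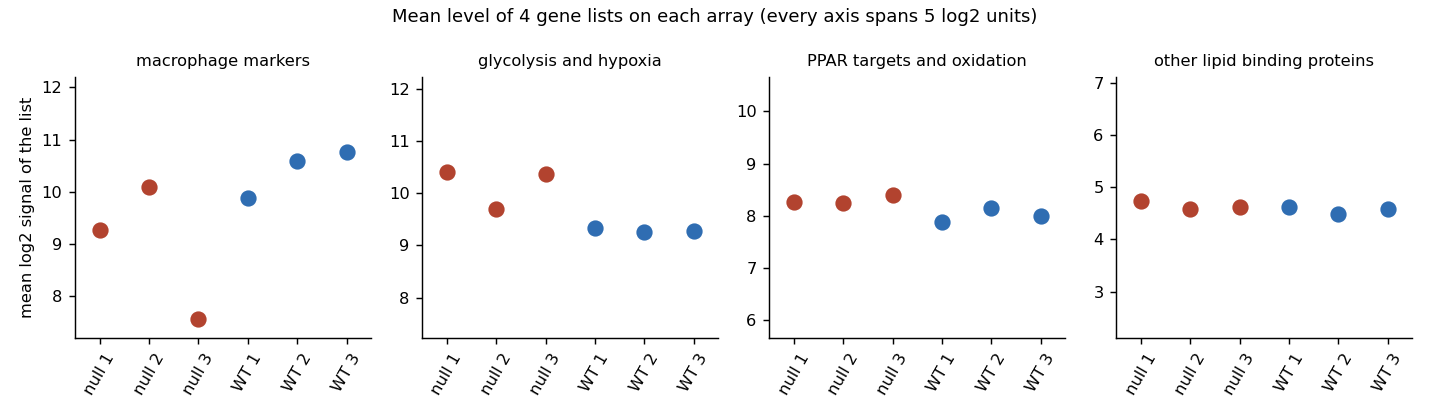
Mean log2 signal (vertical axis) of 4 gene lists on each TSP1 null (red) and wild-type (blue) array. Macrophage markers range from 7.57 on the third null array to 10.76 on the third wild-type array, glycolysis and hypoxia genes are higher on all null arrays, and the other lipid binding proteins stay between 4.49 and 4.73.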

How the data were processed

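For each of 6 arrays the authors deposited 41345 probe set values on the log2 scale. RMA, which corrects background, equalizes the arrays' distributions and summarises probes, and the software Partek are named in the submitters' processing notes. Versions, settings and build: not given in the sources used here. RMA compresses differences of dim probe sets. The platform table gave exactly 1 symbol for 23521 probe sets. Of several for a gene the brightest on average was kept, leaving 22180 genes, and no filter on dim signals was used. Groups came from the titles, which write the null group as TSP1-1; the source names and strain labels of the same samples say TSP1 null, and the spellings were taken to mean one group. They were compared with limma 3.58.1 (R 4.3.3; lmFit and eBayes, two-sided, no covariate), p-values being adjusted by Benjamini-Hochberg over the 22180 genes (threshold 0.05). The procedure was tested on simulated data. Figures used Python 3.11.15 and matplotlib 3.10.9.

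The 4 genes and the lists were chosen with earlier results of these data known. Genes named are the 4 carriers and their relatives, of each pathway list the 3 of smallest p, of each marker list the 2 of smallest p and its first gene, Thbs1, and for each carrier the 4 genes of highest correlation. Cd36, the PPAR genes, Plin1, Car3, Pck1, Slc7a10, Emcn, Cdh5, Nes, Slc1a3, Lum, Dpt and Pdgfrb were named after their values were seen. So were Dcn, Pdgfra, Fap, Pi16, Postn, Thy1, Mfap5, Vwf, Plvap, Flt1, Cldn5, Tek, Erg, Robo4 and Esam. Upstream sequences are from RefSeq (GRCm38.p6), and the motifs were chosen after the results were known. Replicate numbers recur in both groups, and the labels do not say that they pair the arrays. The deviations of same-numbered arrays correlated at -0.14, 0.18 and -0.16. These values show no pairing, but with 3 arrays a group they cannot exclude one.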

Additional observations from a re-analysis of the deposited data

How the results depend on the processing

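The alternatives were a second quantile normalization, median centring, leaving out dim genes, averaging probe sets, a test of every deposited probe set, a robust prior with an intensity trend, an ordinary linear model, array weights, a replicate block, the macrophage marker mean as a covariate, leaving out each array, and, added after the data were seen, leaving out null array 2 together with wild-type array 1. Fabp3 kept a positive difference below the threshold in all 17 (0.14 to 0.36, from 0.15 to 0.36 with 1 array left out). Fabp7 stayed negative in all 17. With 1 array left out it ran from -2.25 to -0.96, and without both arrays it was -2.25 (SE 0.14, limma adjusted p = 0.00693). Fabp4 ran from -0.86 to -0.08 with 1 array left out, turned to 0.27 with the macrophage covariate, and was -1.06 (limma adjusted p = 0.0362) without both arrays. Fabp5 ran from -0.18 to 0.017 with 1 array left out. The replicate block called 0 genes, with the differences unchanged at 0.28, -0.38, -0.11 and -1.41 for Fabp3, Fabp4, Fabp5 and Fabp7. A block cannot change them, as each replicate number occurs once in each group. Nor can leaving out dim genes, a test of every probe set, the robust prior or the ordinary linear model, so the 17 settings are not 17 separate checks of direction. limma called 0 of 22180 genes with all arrays and 2341 at an unadjusted p under 0.05, and the ordinary linear model called 0 and 1904. The number called was 2 with every deposited probe set, 0 to 34 with 1 array left out (34 without the second null array, 1 without the first wild-type array) and 365 without both, Fabp4 and Fabp7 among them. Where a setting moved a value, the cause was not tested. Of 255 list medians under these settings 7 moved beyond the spread between arrays. The block, the test of every probe set, the robust prior and the ordinary linear model could not move any of them. With 3 arrays a group and a median SE of 0.14, small differences cannot be resolved, and dim probe sets bound them further.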
